A study of Homo sapiens with 6 samples.

Results

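Interferon-stimulated genes are the transcripts that cells switch on when they meet interferon, and 9 of them were followed here in human iNeurons: RSAD2, CMPK2, IFIT1, IFIT2, IFIT3, ISG15, MX1, OAS1 and IFI6. Of these 9 genes, 6 had a row in the expression table of 19823 genes, and all 6 passed the filter on low reads. The table used here had no row for IFIT1, IFIT3 and OAS1, which were therefore not analysed. The genes were chosen by name with earlier values of the same contrast in view, RSAD2 first among them. Their differences between groups are therefore given as a description, without p-values of their own, and counts past a threshold stand only beside the share of all genes that passed it.

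Transcript levels came from poly(A) RNA-seq of glutamatergic iNeurons made from WTc11, an established human induced pluripotent stem cell (iPSC) line. The line is a clone that carries Neurogenin 2 under a doxycycline-inducible promoter and the dCas9-KRAB repressor used for CRISPR interference. All 6 samples, from neurons of the parental line, shared a knockdown of the RNA-binding protein RBM12. They formed 2 groups, 3 untreated and 3 treated with isoproterenol, a β-adrenergic agonist that raises cAMP. The labels give neither dose nor duration. The authors report that this neuronal line has few β2-adrenergic receptors of its own and only a very modest cAMP and transcriptional response. Control-guide samples were not analysed here, and the knockdown itself could not be checked. RBM12 stood at 263 ± 17.4 normalized counts (SD, n = 3) in untreated and 222 ± 23.6 in isoproterenol samples. All 3 isoproterenol values lay below all 3 untreated values, a pattern shown by 6.19% of all tested genes. The log2 fold change was -0.25 (SE 0.11), and its cause was not tested. The RBM12 count is uncertain, because its exons overlap same-strand exons of CPNE1 (575 bases) and of another protein-coding gene (228 bases). The labels do not say whether samples of a group were separate cultures, so the spread between them may be technical.

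Interferons bind receptors at the cell surface that activate the kinases JAK1, TYK2 and JAK2. Those kinases phosphorylate STAT proteins, which join IRF9 and bind a DNA element called the interferon-stimulated response element (ISRE) before interferon-stimulated genes. The products act against viruses at many steps. RSAD2 encodes viperin, an enzyme that makes a chain-terminating nucleotide, and its neighbour CMPK2 encodes a nucleotide kinase. IFIT proteins recognise viral RNA, MX1 is a GTPase that blocks incoming virus, OAS1 makes the messenger that activates RNase L, ISG15 is a ubiquitin-like modifier, and IFI6 is a small membrane protein that limits cell death and flavivirus replication. Many cells keep a low level of such transcripts without added interferon.

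Sequences before the start sites of these genes were searched because the element through which interferon acts lies in such sequences. RefSeq promoter windows (GRCh38.p14) held 14 start sites for 8 of the 9 genes, all but IFIT2. In each, the 250 bases before the start were searched on both strands for the ISRE core, written as GAAA, any 2 bases, GAAA. For RSAD2 the stretch lies at chr2:6877608-6877665 on the plus strand, before the start at 6877777. For ISG15 it lies at chr1:1013360-1013423 on the plus strand, and for IFI6 at chr1:27672252-27672372 on the minus strand. For IFIT1, which had no row, it lies at chr10:89392483-89392553 on the plus strand. Each is written 5′ to 3′ along its gene, with the core in capitals. Where the core lies on the other strand it reads as TTTC, 2 bases, TTTC.
RSAD2: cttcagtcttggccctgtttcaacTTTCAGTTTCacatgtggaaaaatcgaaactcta
ISG15: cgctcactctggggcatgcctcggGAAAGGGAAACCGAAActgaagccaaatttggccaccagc
IFI6: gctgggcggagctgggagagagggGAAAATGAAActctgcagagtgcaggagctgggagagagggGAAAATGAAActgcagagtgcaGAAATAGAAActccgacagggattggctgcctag
IFIT1: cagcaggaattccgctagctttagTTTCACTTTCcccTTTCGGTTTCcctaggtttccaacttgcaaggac
The ISG15 run holds 2 overlapping cores, between 113 and 98 bases before the start, and the IFI6 run holds 3 cores, between 156 and 84 bases before it. The RSAD2 run holds 1, from 145 to 136 bases before the start.

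The core was found for 6 of the 8 genes and in 7 of their 14 windows. Among all 27305 genes with a window it was found for 3.71%, and in 3.02% of the 35116 windows. CMPK2 and OAS1 had no such core in these windows. A form with a single base between the pair of GAAA runs was added to the search after the letters had been seen. It was found for 5 of the 8 genes against 3.34% of all genes, and in 6 of the 14 windows against 2.69%. Because the form was taken from these same windows, nothing is read from that excess. This form is printed for the region shared by RSAD2 and CMPK2, where the genes run in opposite directions from an upstream RSAD2 start and a CMPK2 start 66 bases apart. The RSAD2 stretch lies at chr2:6865709-6865857 on the plus strand, before the start at 6865885. The CMPK2 stretch lies at chr2:6865820-6865857 on the minus strand, before its start at 6865819. The bases in capitals mark the form with the single spacer base.
RSAD2 upstream start: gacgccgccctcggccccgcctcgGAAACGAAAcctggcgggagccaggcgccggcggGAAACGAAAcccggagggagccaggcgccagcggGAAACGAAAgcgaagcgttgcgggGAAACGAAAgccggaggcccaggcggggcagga
CMPK2: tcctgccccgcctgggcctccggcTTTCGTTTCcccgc
The upstream RSAD2 window holds 4 copies, and the single CMPK2 copy is the last of these 4 read on the other strand. The window of the RSAD2 start at 6877777 holds no match of this form.

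The same windows were searched for other motifs. The binding motif of STAT dimers (TTCNNNGAA), through which interferon gamma acts, was found for 2 of the 8 genes, OAS1 and MX1, against 8.09% of all genes. The cAMP response element (TGACGTCA), through which CREB responds to cAMP, was found for 0 of the 8 genes, against 2.03% of all genes. Its shorter form (TGACG) was found for 2 of them, ISG15 and IFIT1, against 24.9%. A match is only a match of letters, and none of these searches measured binding.

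Levels are given first, because several of these genes had few reads. Each library held between 18116816 and 21488793 reads assigned to genes. Normalized counts are reads divided by a size factor per sample, and levels between genes are compared per kilobase (kb) of merged exon. Over the 6 samples IFI6 was the most abundant of the members, at 200 normalized counts per kb, followed by ISG15 at 43.6 and CMPK2 at 21.3. RSAD2 at 2.09, MX1 at 1.67 and IFIT2 at 1.61 lay far lower. The median of the 18130 tested genes was 61.0 normalized counts per kb, so only IFI6 lay above it. IFI6, ISG15, CMPK2 and RSAD2 followed each other without overlap, in 6 of 6 samples at each step. RSAD2 and MX1 overlapped, as did MX1 and IFIT2, with the first higher in 4 of 6 samples in both comparisons. Merged exons span many isoforms at MX1, with 17984 bases, which lowers its level per kb if a shorter isoform is used.

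**Figure D1:**
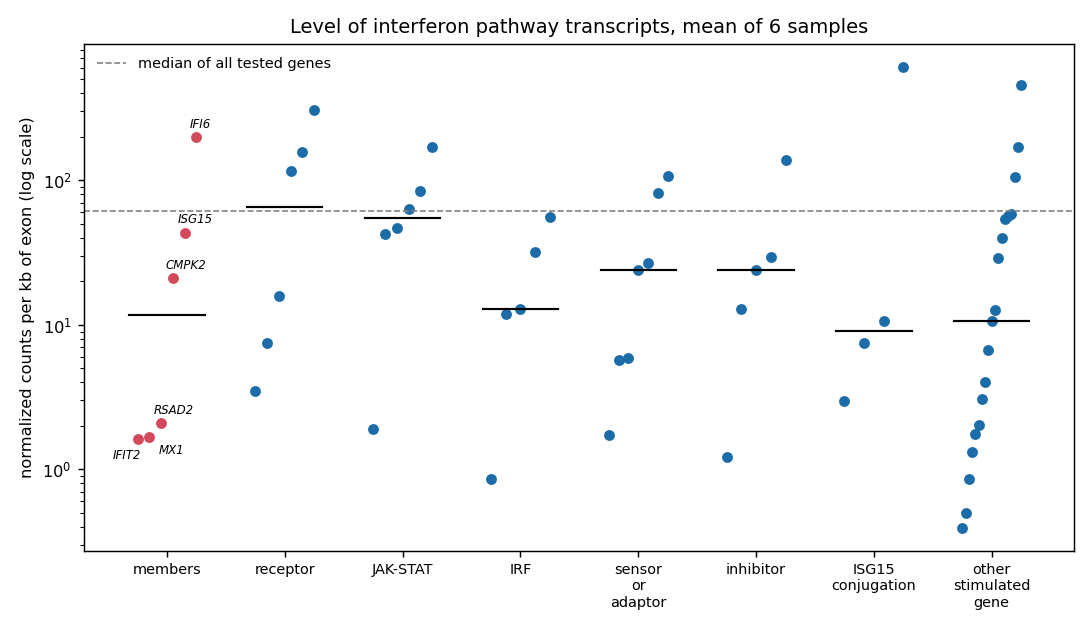
Mean level over 6 samples, in normalized counts per kb of merged exon on a log axis, of the 6 members with a row (red) and of 52 further interferon pathway genes with a row by role (blue). Each point is a gene, black lines are medians within a role, and the dashed line is the median of all tested genes, 61.0. RSAD2, MX1 and IFIT2 lie at 1.61 to 2.09, and IFI6 lies at 200.

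RSAD2 (ENSG00000134321; chr2:6865557-6898239, plus strand, GENCODE positions on GRCh38) had 18, 19 and 13 reads in untreated replicates 1 to 3 and 11, 0 and 9 reads in isoproterenol replicates 1 to 3. As normalized counts these were 18.8, 18.4 and 13.4 against 11.0, 0 and 9.23. All 3 isoproterenol samples lay below all 3 untreated samples. The means were 16.9 ± 2.98 (SD, n = 3) and 6.74 ± 5.90. The log2 fold change was -1.83 (SE 0.88) on the log2(normalized count + 1) scale. Summed over libraries, 50 reads in untreated samples stood against 20 in isoproterenol samples, a ratio of 0.416 after scaling (95% exact interval 0.235 to 0.712, counting error only). The spread between replicates exceeded counting error, at a chi-square of 2.50 per degree of freedom, so this interval is too narrow for the difference between groups.

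The size of the RSAD2 difference depended on 1 library. Within the same-numbered pairs, the log2 difference was -0.725 in pair 1, -4.28 in pair 2 and -0.498 in pair 3. The isoproterenol sample of pair 2 held no RSAD2 read among 18116816, which allows up to 3 reads, or 3.46 normalized counts. Without that library the log2 fold change was -0.68. That library was also the shallowest of the 6, and the deepest held 1.19 times its reads. It held 2 genes that were at 0 there and averaged at least 10 reads, with none at 0, in the other 5 libraries, and RSAD2 was 1 of those 2. The other libraries held 0 to 3 such genes each. The part of that library in the result was not tested beyond leaving it out.

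**Figure D2:**
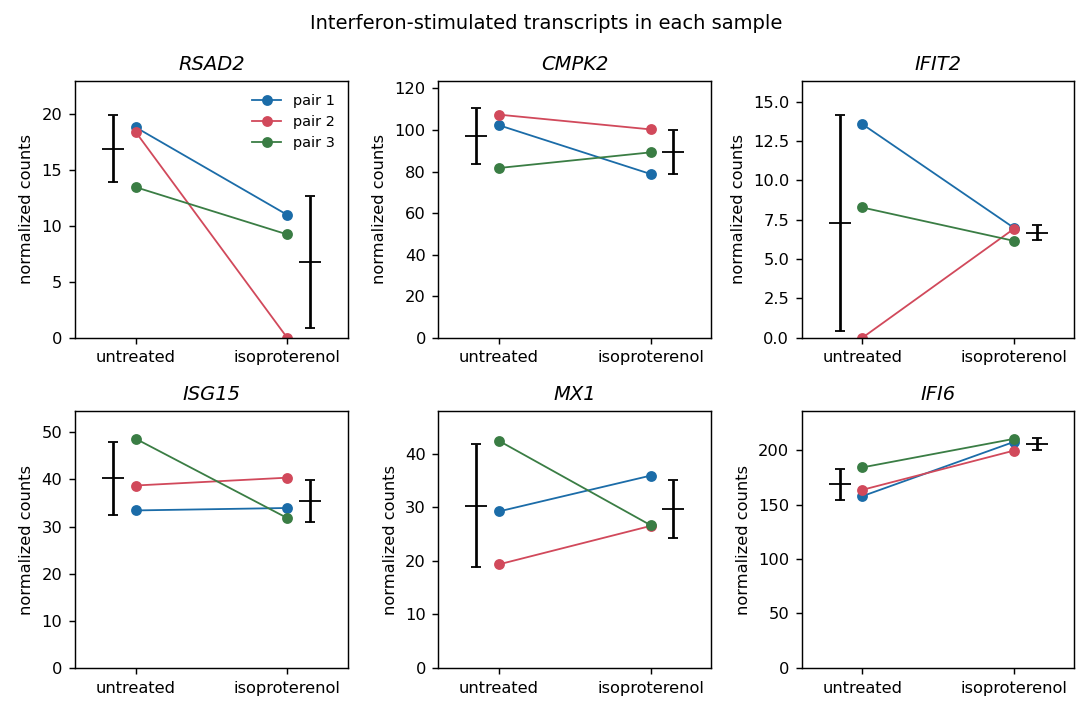
Normalized counts of the 6 members with a row in each sample, on linear axes from 0, with lines joining same-numbered samples and black marks for the group mean ± SD (n = 3). The RSAD2 value of isoproterenol replicate 2 and the IFIT2 value of untreated replicate 2 are both 0, and the IFI6 isoproterenol values, 200 to 210, lie above all untreated values.

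CMPK2 (ENSG00000134326; chr2:6840570-6866635, minus strand) shares 351 exonic bases with RSAD2 on the other strand. Whether the authors counted reads by strand is not given in the sources used here, and without it reads in the shared bases cannot be assigned to either gene. CMPK2 had 102, 107 and 81.7 normalized counts in untreated samples and 78.8, 100 and 89.2 in isoproterenol samples. The groups overlapped. The log2 fold change was -0.11 (SE 0.17), and the 3 pairs differed by -0.37, -0.10 and 0.13. Over the 6 samples the Pearson r of CMPK2 with RSAD2 was -0.130, but that value leans on isoproterenol replicate 2. There RSAD2 had no read and CMPK2 had 87 reads, near its values elsewhere of 79 to 111. In the other samples both genes were highest in untreated replicates 1 and 2.

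IFIT2 (ENSG00000119922; chr10:89283694-89309271, plus strand) was the least abundant member. It had 13, 0 and 8 reads in untreated samples and 7, 6 and 6 in isoproterenol samples, and the groups overlapped. The means were 7.28 ± 6.84 and 6.69 ± 0.462 normalized counts (SD, n = 3). The log2 fold change was 0.58 (SE 0.82), but it was -0.60 without untreated replicate 2, the library with no read, and -0.09 with edgeR. No direction can be given for IFIT2 at this depth. IFIT2 shares 524 exonic bases with a long noncoding RNA on the same strand. IFIT3 and IFIT1, which lie 18035 and 83274 bases beyond it on chromosome 10, had no row.

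ISG15 (ENSG00000187608; chr1:1001138-1014540, plus strand) had 33.4, 38.7 and 48.6 normalized counts in untreated samples and 33.9, 40.4 and 31.8 in isoproterenol samples. The groups overlapped, and the 3 pairs differed by 0.02, 0.06 and -0.60. The log2 fold change was -0.17 (SE 0.24). Its reads spread no more than counting error gives, at a chi-square of 0.970 per degree of freedom.

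MX1 (ENSG00000157601; chr21:41420020-41470071, plus strand) had 29.2, 19.4 and 42.4 normalized counts in untreated samples and 35.9, 26.5 and 26.7 in isoproterenol samples. The untreated values spanned all 3 isoproterenol values. The log2 fold change was 0.02 (SE 0.29), with 2 pairs above 0 and 1 below, and it changed sign with edgeR, at -0.02. On the other strand, MX1 shares 562 exonic bases with TMPRSS2 and 436 with a long noncoding RNA. If reads were not counted by strand, those in the shared bases cannot be assigned.

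IFI6 (ENSG00000126709; chr1:27666064-27672212, minus strand) had 158, 164 and 184 normalized counts in untreated samples and 207, 200 and 210 in isoproterenol samples. All 3 isoproterenol samples lay above all 3 untreated samples. The means were 168 ± 13.9 and 206 ± 5.60 (SD, n = 3), a log2 fold change of 0.29 (SE 0.11). Each pair differed in the same direction, by 0.39, 0.29 and 0.19. With 498 and 586 summed reads, the ratio was 1.22 (95% exact interval 1.08 to 1.38, counting error only). IFI6 shares 216 exonic bases with LINC02574, a noncoding RNA on the same strand.

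**Figure D3:**
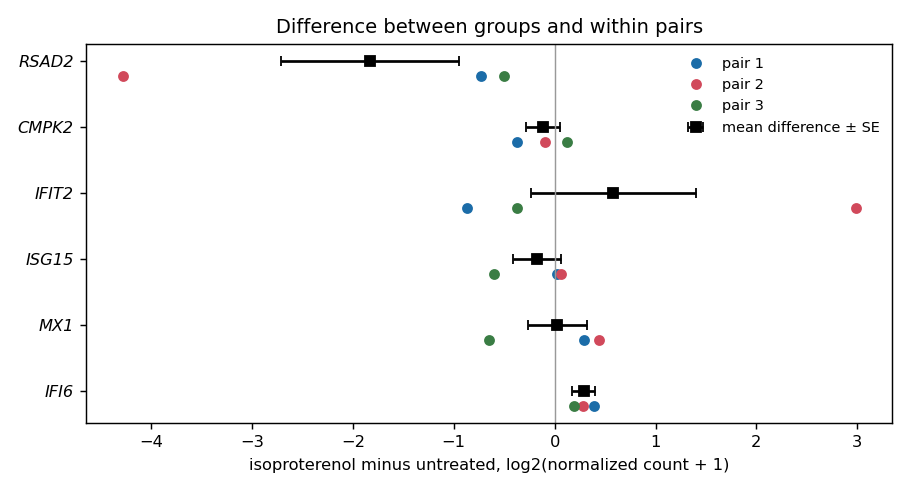
Isoproterenol minus untreated difference, in log2(normalized count + 1), for the 6 members with a row, as the mean difference ± SE over 3 samples a group (squares) and within each same-numbered pair (circles). RSAD2 and IFI6 have all 3 pairs on 1 side of 0, RSAD2 below and IFI6 above, and pair 2 of RSAD2 and IFIT2 lies far from the other pairs.

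Across the 6 members, 1 gene (RSAD2) had isoproterenol values that all lay below untreated values and 1 gene (IFI6) had values that all lay above. Of all tested genes, 6.19% showed the first pattern and 6.73% the second. RSAD2 alone was lower in all 3 pairs and IFI6 alone was higher in all 3 pairs, as were 17.6% and 18.5% of all tested genes. The members' median log2 fold change was -0.045 and that of all tested genes was 0.00153.

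The fit across all genes called few genes without the pairing. With limma, 3 of 18130 genes (0.0165%) passed an adjusted p of 0.05, and 0 of the 6 members did. At an unadjusted p of 0.05, limma counted 1 member, IFI6, beside 7.68% of all genes, and at the adjusted threshold edgeR called 0 members (0.0165% of all genes) and DESeq2 0 (0.161%). Same-numbered samples deviated together, so a fit with the replicate number as a block was also made. That limma fit called 885 genes (4.88%), 1 of them a member, RSAD2, and at an unadjusted p of 0.05 it counted 2 members beside 16.2% of all genes. The RSAD2 call was lost without pair 2. With edgeR on the recovered reads and the block, 944 genes (5.21%) passed and 0 of the 6 members did, and DESeq2 with the block called 0 members beside 1.07% of the genes it adjusted. DESeq2 gave an adjusted p to only 4 of the 6 members without the block and 2 with it, and to RSAD2 in neither fit, so its counts of 0 say little about the members. Since the members were chosen with this contrast in view, nothing is read from these counts.

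**Figure D4:**
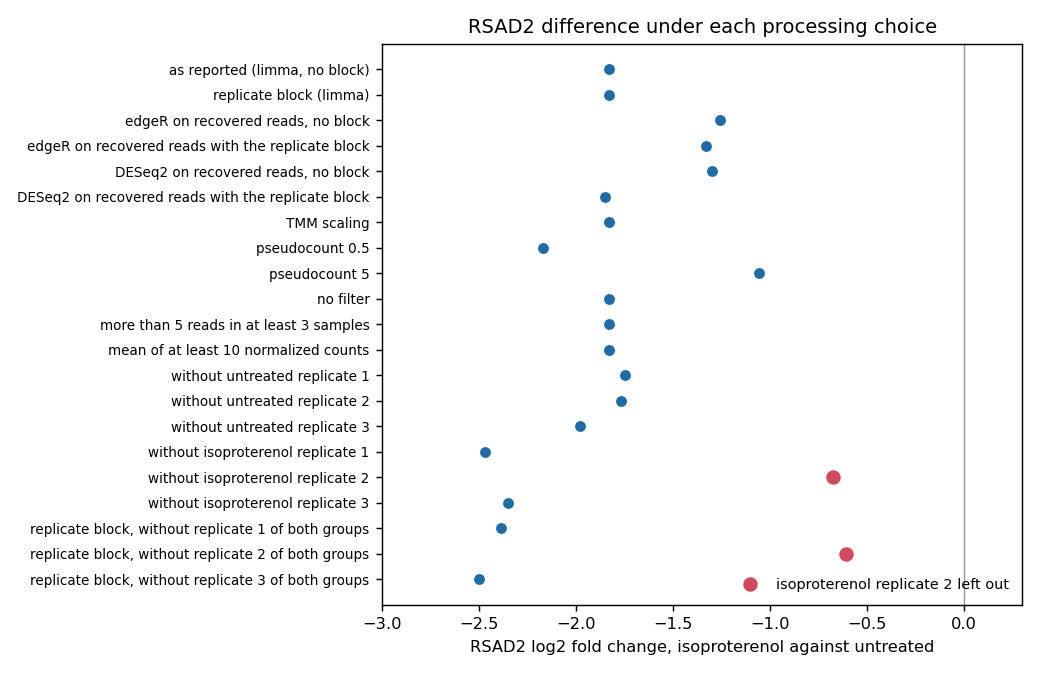
RSAD2 log2 fold change, isoproterenol against untreated, under each processing choice, with the choices that leave out isoproterenol replicate 2 in red. All 20 alternatives lie below 0, from -2.50 to -0.61, and the red points lie nearest to 0, at -0.68 and -0.61.

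Beyond the members, a list of 103 genes of the interferon pathway was written from general knowledge, but with earlier results of these data known. Of these, 52 had a row and 48 were tested. With limma, 0 of the 48 passed an adjusted p of 0.05, and the smallest adjusted p was 0.583. The same count was 0 with the block (smallest adjusted p 0.106), and 0 with edgeR with or without the block. DESeq2 also called 0, but it gave an adjusted p to only 34 of the 48 genes without the block and 33 with it. At an unadjusted p of 0.05, limma counted 2 genes without the block and 3 with it, beside 7.68% and 16.2% of all tested genes. The median log2 fold change of the 48 genes was 0.01. Of the 48, 6 were higher and 6 were lower in all 3 pairs, against 18.5% and 17.6% of all tested genes. Isoproterenol values all lay above untreated values for 3 and all below for 3, against 6.73% and 6.19% of all tested genes.

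None of the 12 interferon genes on the list, from types I, II and III, had a row. All 6 receptor chains had one. IFNAR1 and IFNAR2, the chains that bind type I interferon, had means of 1810 and 103 normalized counts, and IFNGR1 and IFNGR2, the chains for interferon gamma, had 554 and 774. IFNLR1 and IL10RB, the receptor for interferon lambda, had 77.8 and 28.0. Receptor log2 fold changes ran from -0.04 to 0.03, and the groups overlapped for all 6. IFNAR2 and IL10RB share exonic bases with a readthrough gene on the same strand, which makes their counts uncertain.

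The 6 genes of the JAK-STAT step were all measured. JAK1 was the most abundant at 2246 normalized counts, with a log2 fold change of -0.05 (SE 0.05), and JAK2 had 499, with 0.06 (SE 0.08). STAT2, a transcription factor activated by these kinases, had 787, with 0.10 (SE 0.06) and overlapping groups. TYK2, which pairs with JAK1 at the type I receptor, had 371 ± 27.3 in untreated and 428 ± 25.3 in isoproterenol samples (SD, n = 3), a log2 fold change of 0.21 (SE 0.09) that did not pass the adjusted threshold. IRF9, a DNA-binding partner of STAT2, was far lower at 12.3 normalized counts, with a log2 fold change of 0.50 (SE 0.43) and overlapping groups. It shares 1544 exonic bases with another gene on the same strand, so its count is uncertain. IRF3, which turns on interferon genes after viral RNA is sensed, had 219 ± 1.33 and 207 ± 1.94 normalized counts, with a log2 fold change of -0.08 (SE 0.10). Isoproterenol values all lay below untreated values for JAK1 and IRF3 and all above for TYK2, and the groups overlapped for JAK2.

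Sensors and adaptors had a row for 7 of 12 genes and inhibitors for 5 of 5. The enzymes that attach ISG15 to proteins had a row for 4 of 5, all but HERC5, the main human ligase. UBE2L6, the ISG15 conjugating enzyme, was the highest gene of the whole list per kb, at 609 normalized counts per kb, followed by ADAR, the RNA-editing enzyme with an interferon-inducible form, at 459. IFNGR2 at 305, IFIT5 at 171 and JAK1 at 170 came next. IFIT5, a relative of IFIT2 that binds RNA, had a log2 fold change of -5.8e-05 (SE 0.06), and ADAR had 0.003 (SE 0.04). Of the 52 other stimulated genes, 19 had a row and 16 were tested. TRIM5, a restriction factor named here after its values were seen, had 47.3 ± 0.307 and 66.2 ± 4.43 normalized counts (SD, n = 3), a log2 fold change of 0.47 (SE 0.19), and it did not pass the adjusted threshold.

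The 5 genes whose log2 values over the 6 samples were most like those of RSAD2 (Pearson r, over 16941 genes averaging 10 or more normalized counts) were AL161734.1 (r = 0.990), ITPKA (0.989), H2AZ1 (0.986), AC004918.5 (0.983) and AL356235.1 (0.983). None of them is on the interferon lists. All 5 were lowest in isoproterenol replicate 2, the library without an RSAD2 read, and without it r fell to between 0.595 and 0.871 over 5 samples. Over all genes, 24 had r above 0.95. These values come from 6 libraries that share their depth and scaling, and they are a description only. The other members were not among the most like genes, with r of 0.081 for MX1, -0.130 for CMPK2, -0.173 for ISG15, -0.187 for IFIT2 and -0.491 for IFI6. Their r was not computed without isoproterenol replicate 2. These values also lean on the RSAD2 zero in that library, so neither likeness nor unlikeness to RSAD2 is read from them.

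Markers of the neurons and of other cell types were checked in the same samples. All 10 glutamatergic neuron markers had a row, and their summed level was 4.40e+05 to 4.53e+05 normalized counts in untreated and 4.31e+05 to 4.45e+05 in isoproterenol samples. NEFL, a neurofilament subunit, made up most of that sum, at a mean of 2.85e+05. Its isoproterenol values all lay below its untreated values, at a log2 fold change of -0.05 (SE 0.02). Those of SLC17A7, another of the 10, all lay above, at 0.06 (SE 0.05). Of all tested genes, 6.19% and 6.73% showed these patterns. RBFOX3 overlapped but was higher in all 3 pairs. NEFL was the 1 marker of the 10 past an adjusted p of 0.05 in limma with the block, beside 4.88% of all genes. Without the block 0 passed. Without NEFL the sum was 1.54e+05 to 1.58e+05 in untreated and 1.55e+05 to 1.61e+05 in isoproterenol samples. TUBB3 was low among them, at 79.4 normalized counts, and shares 1584 exonic bases with another gene on the same strand. None of 8 microglia and macrophage markers had a row. Of 6 astrocyte markers, 2 had one (AQP4 and S100B, but not GFAP), with a summed level of 160 to 175 in untreated and 134 to 157 in isoproterenol samples. Of 8 fibroblast and endothelial markers, 1 had a row (COL1A2), with 15.5 to 24.2 and 15.4 to 25.4. Of 6 pluripotency markers, 3 had a row (POU5F1, LIN28A and PRDM14, but not NANOG), and POU5F1 fell under the read filter. Their summed level was 79.4 to 102 in untreated and 97.4 to 115 in isoproterenol samples. PRDM14 made up most of that sum, at a mean of 79.1. Its groups overlapped, but it was higher in all 3 pairs, as were 18.5% of all tested genes. The astrocyte sum, of AQP4 and S100B only, was lower in all isoproterenol samples than in all untreated samples. For each of these 2 genes alone the groups overlapped, though AQP4 was lower in all 3 pairs, as were 17.6% of all tested genes. As single genes, 6.19% of all tested genes showed the pattern of the sum. Its part in the RSAD2 values was not tested. In bulk samples, fewer cells of a type and less RNA per cell cannot be told apart.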

How the data were processed

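RNA was poly(A)-selected and sequenced from directional libraries. Reads were aligned to GRCh38 and counted per gene with featureCounts by the authors. Tool versions and strand use in counting are not given in the sources used here. The deposited signal is a normalized count, that is, reads divided by 1 DESeq2 size factor per sample. Values above 0 were whole multiples of 1 step per sample (tolerance 0.001 reads), which gave the reads back. Groups and replicate numbers came from sample titles. Genes with more than 5 reads in at least 4 samples were tested (18130 of 19823) with limma 3.58.1 in R 4.3.3, run with its trend and robust options on log2(normalized count + 1), two-sided, with Benjamini-Hochberg adjustment over all genes tested, and low counts make fold changes sensitive to the added 1. edgeR 4.0.16 and DESeq2 1.42.0 on recovered reads were alternatives, as were a replicate block, TMM, other pseudocounts and filters, and leaving out each replicate. The scripts were tested on simulated data, with changes placed only in better-read genes and no replicate effect. That test therefore does not cover the members with few reads or the effect of the block.

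Same-numbered samples correlated in their deviations from group means (11587 genes with a mean of at least 100) at 0.269, 0.493 and 0.388, all above 0.1, and the samples were treated as paired by number in the blocked fits. Ratio intervals are exact, from summed reads. Gene positions, merged exon lengths and overlaps are from GENCODE release 44 (99.6% of identifiers matched), and promoters are from RefSeq. The members and gene lists were chosen with earlier results of these data known. Named genes are the members, RBM12, the receptors, the JAK-STAT genes, IRF3 and the 5 pathway genes highest per kb. They also include any pathway gene past an adjusted p of 0.05 and the 5 genes most like RSAD2. TRIM5, outside this rule, was named after its values were seen. The rule held 1 more gene, which is not reported here.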

Additional observations from a re-analysis of the deposited data

How the results depend on the processing

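The RSAD2 log2 fold change stayed below 0 under all 20 alternatives, from -2.50 to -0.61. IFI6 stayed above 0, from 0.24 to 0.36. ISG15 and CMPK2 lay below 0 in 19 of 20 alternatives each, MX1 in 7 of 20 and IFIT2 in 5 of 19. The members' median ranged from -0.23 to 0.19. No gene of the interferon pathway list passed under any of the 20 alternatives. The replicate block was the choice that moved counts most: all genes past an adjusted p of 0.05 numbered 3 without it and 885 with it in limma, 944 with edgeR and the block, and 23 and 141 with DESeq2 without and with the block. Leaving out 1 replicate at a time gave 2 to 67 genes, with 67 without isoproterenol replicate 2. With the block and without pair 1, 2 or 3, an alternative added after seeing the data, the counts were 531, 665 and 456. Among members, the block gave 1 call (RSAD2) in limma and 0 in edgeR and DESeq2, the last with no adjusted p for RSAD2. In limma with the block the count was 1 without pair 1, 1 without pair 3 and 0 without pair 2. Leaving out single replicates without the block gave 0 calls throughout. The causes were not tested. IFIT2 had no value under the filter on a mean of at least 10 normalized counts. Depth limits RSAD2 and IFIT2 most, at 0 to 19 reads a library, where a few reads set the fold change.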
